A study of Mus musculus with 4 samples.

Results

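The ATF4 amino acid and serine genes are 36 mouse genes, of 31053 in the deposited tables, chosen by name as targets or partners of the transcription factor ATF4. The choice was made with earlier results of these data known. All 36 were found by symbol. ATF4 is translated when the integrated stress response slows general translation, after amino acid shortage, misfolded protein in the endoplasmic reticulum or other stress. It binds, often paired with a C/EBP protein, to promoter elements called C/EBP-ATF response elements and raises genes for the synthesis, uptake and tRNA loading of amino acids. Feedback genes such as Trib3 limit the response. In secretory epithelium the pathway is known for matching amino acid supply to protein synthesis.

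The genes were measured by 3′ single-cell RNA sequencing of mammary epithelial cells from FVB mice of the genotype Tfap2c fl/fl with Krt5-CreERT2. All 4 mice carry both alleles. The Cre is driven by the Krt5 promoter, which is used by basal cells, and needs 4-hydroxytamoxifen (4OHT) to become active. Injections began at week 4, with corn oil as vehicle in 2 mice and with 4OHT in the other 2, and glands were taken at week 9. The labels give the length of the injections as 5 days in one field and as a week in another. Each library comes from 1 mouse and is 1 replicate, so p-values between treatments measure the spread between these libraries. Cells were put into 3 classes by raw counts of keratins and a few markers: basal (myoepithelial), luminal progenitor, and hormone-sensing luminal. None of the 36 genes is part of that rule.

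The libraries held 3546 to 5545 cells and 17351950 to 22017878 UMIs (counted molecules). Basal cells numbered 1421 to 2178 per library, progenitors 1132 to 1770 and hormone-sensing cells 151 to 447. Of the kept cells 16.3% and 19.8% fell in no class with corn oil, against 26.5% and 25.1% with 4OHT. The part of this difference in the treatment comparisons was not tested. Between 18 and 36 cell barcodes were shared by any pair of libraries. Markers outside the rule fitted the class names: Trp63 stood at 64.5 to 82.5 CPM (the gene's UMIs scaled to a class sum of 1000000) in basal cells, Elf5 at 115 to 179 CPM in progenitors and Pgr at 138 to 203 CPM in hormone-sensing cells, each with lower values in the other classes. Tfap2c itself did not separate the treatments in basal cells, at 389 and 285 CPM in the libraries labelled corn oil and 285 and 325 CPM in those labelled 4OHT. A 3′ count does not check an internal deletion, so the treatment groups are named by their labels. The hormone-sensing sums also held markers of other cells: the 8 stromal genes summed to 53.5 to 1346 CPM, nearly all of it Dcn, with Col1a1 at 1.29 CPM or less. Their 8 leukocyte genes summed to 117 CPM in 4OHT replicate 1 and to 4.71 CPM or less in the other libraries. Most of the 117 CPM was Cd74, at 94.6 CPM, with Tyrobp at 18.03 CPM. Lyz2 and C1qa were at 0 in all libraries and Ptprc was at 2.58 CPM or less. In the hormone-sensing sums the 6 endothelial genes summed to 13.5 to 144.5 CPM and all 4 adipocyte genes were at 0. The part of these cells in the values below was not tested.

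Promoter sequence was read to show where ATF4's element lies in the members. RefSeq promoter windows (build GRCm38.p6, 250 bases before to 50 after the annotated start) were present for 29 of the 36 members. The reference used held no window for Cth, Aldh1l2, Slc7a5, Slc1a5, Wars, Nars and Lars, so their promoters were not searched. The element was searched on both strands as TGATGNAA, which reads TTNCATCA on the other strand. It was found in 12 of the 29 members (41.4%) and in 4.51% of 27025 genes with a window. The form TGATGCAA, contained in the first, was found in 9 members (31.0%) and in 1.03% of genes. The cyclic AMP element TGACGTCA was found in 0 of 29 members and in 2.03% of genes. The members were picked as ATF4 targets, so these shares describe the choice, and a match is a stretch of letters, not evidence of binding. The stretches below come from members whose RNA levels are described next. Each is written 5′ to 3′ on the strand of the gene, with the element in capitals.
Nupr1: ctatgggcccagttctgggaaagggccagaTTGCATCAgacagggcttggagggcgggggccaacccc
Chac1: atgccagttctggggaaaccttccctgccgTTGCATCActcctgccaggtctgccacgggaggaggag
Asns: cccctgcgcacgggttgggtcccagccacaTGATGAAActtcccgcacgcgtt
Pycr1: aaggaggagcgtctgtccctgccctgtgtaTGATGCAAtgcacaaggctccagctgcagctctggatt
Slc7a11: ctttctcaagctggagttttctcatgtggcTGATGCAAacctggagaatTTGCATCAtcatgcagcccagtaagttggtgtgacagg
Aars: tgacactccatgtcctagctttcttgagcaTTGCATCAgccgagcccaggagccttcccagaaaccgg
They lie at chr7:126625543-126625610 (minus strand) for Nupr1, chr2:119351019-119351086 (plus) for Chac1 and chr6:7693210-7693262 (minus) for Asns. Those of the others are chr11:120643814-120643881 (minus) for Pycr1, chr3:50443623-50443709 (minus) for Slc7a11 and chr8:111033700-111033767 (plus) for Aars. Counted from the annotated start, the first base of the element is at -110 in Nupr1, -193 in Chac1, -23 in Asns, -103 in Pycr1 and -112 in Aars. Slc7a11, the cystine transporter, holds the element at -66 and again, on the other strand, at -47. The window of Aars, outside the stretch shown, holds a second match that starts 9 bases after the start. The other members with a match were Trib3, Slc1a4, Gars, Iars, Tars and Yars.

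The question of the class comparisons is how the 3 epithelial classes of the same gland differ in these genes. Of the 3 classes, basal cells had the highest levels, progenitors lower ones and hormone-sensing cells the lowest for most members. That order held in all 4 libraries, on the CPM scale, for 23 of the 36 members. The share of all genes with that order was not counted. The 23 include Atf4, Sars and Nars, whose basal against progenitor difference did not pass the test. Cells in no class were not compared. Their mean level over the libraries was above the basal mean for some members, such as Ddit3 at 445 against 424.5 CPM. It was below the basal mean for others, such as Atf4 at 744 against 864 CPM. In basal against progenitor cells 28 members were higher and 2 lower past the threshold (edgeR's quasi-likelihood test with library as a block, adjusted p under 0.05), where 56.1% of the 11135 genes tested passed, 29.5% as higher and 26.6% as lower. The median log2 fold change was 0.95 over the members and 0.04 over all genes. In hormone-sensing against basal cells 2 members were higher and 32 lower, beside 59.8% of all genes called, 27.3% higher and 32.4% lower, with medians of -2.43 and -0.08. In hormone-sensing against progenitor cells 4 members were higher and 27 lower, beside 46.4% of all genes called, 21.9% higher and 24.6% lower, with medians of -1.68 and -0.02. These 3 comparisons share their class sums, so they are not independent of each other. The 36 members together took 5298 to 6699 CPM in basal cells, 2846 to 4132 CPM in progenitors and 1796 to 2391 CPM in hormone-sensing cells, with no overlap between the classes. Without Atf4 and Slc3a2, the 34 others took 3197 to 4267 CPM in basal cells, and the luminal classes overlapped, at 1824 to 2504 CPM in progenitors and 1327 to 1906 CPM in hormone-sensing cells.

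**Figure D1:**
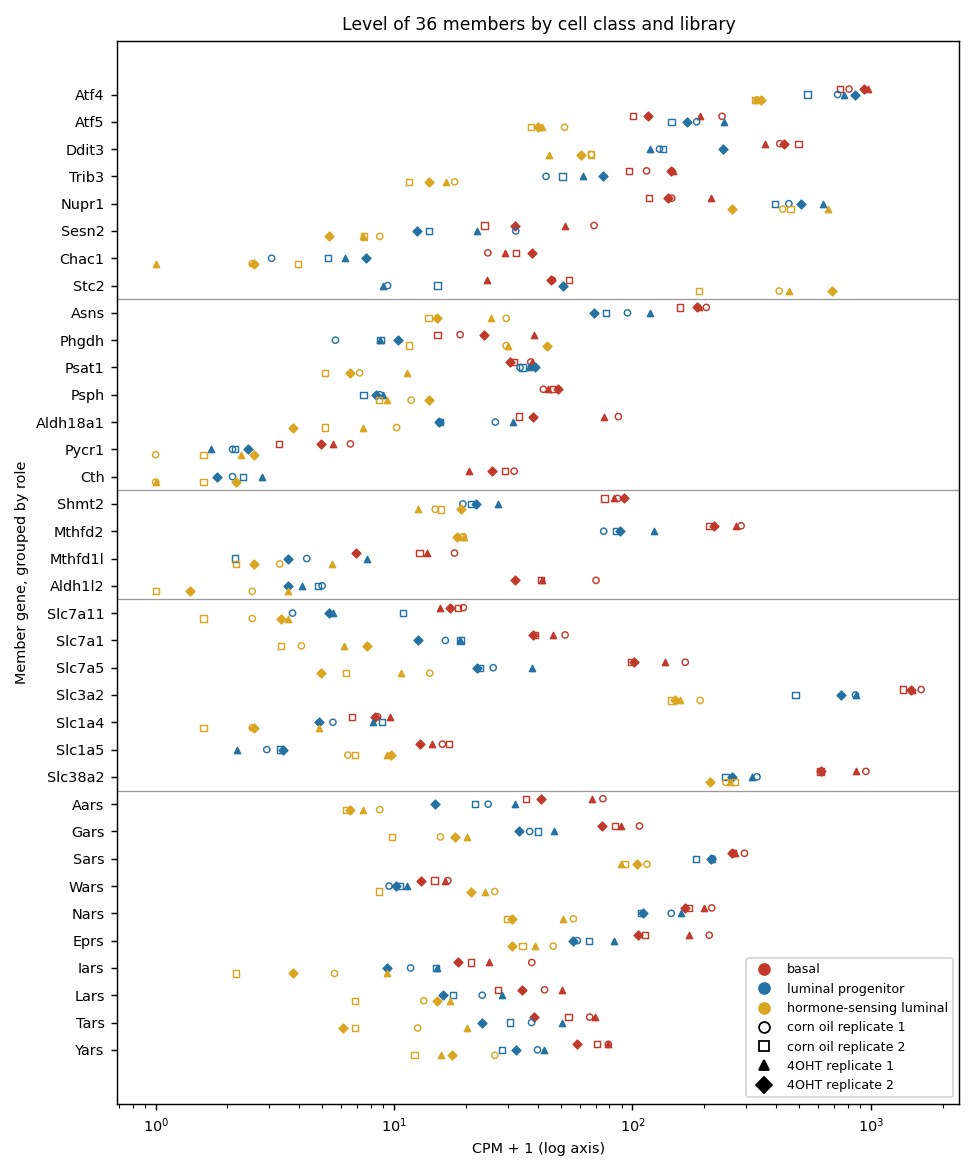
Level of each member in every library and class, as CPM + 1 on a log axis, with genes grouped by role (transcription factors and stress feedback, amino acid synthesis, mitochondrial folate enzymes, transporters, tRNA synthetases). Red marks basal, blue progenitor and yellow hormone-sensing cells, open symbols corn oil and filled symbols 4OHT. Basal points lie to the right and hormone-sensing points to the left for most genes. Nupr1, Stc2, Atf5, Phgdh, Psph, Slc1a5, Wars and some others depart from that order in some or all libraries.

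2 choices bear on the basal against progenitor values. CPM divides by the class's own sum, while the test also applies TMM factors, which lower basal against progenitor log2 differences by 0.27 on average and hormone-sensing against progenitor differences by 0.25. Without any factor, an alternative added after seeing the data, the median over all genes was 0.31 in basal against progenitor cells, 69.8% of the calls were higher against 52.5% with the factors, and 32 members were higher and 1 lower. In hormone-sensing against progenitor cells the median over all genes was then 0.23, 64.0% of the calls were higher against 47.1%, and 4 members were higher and 26 lower. A stricter class rule, with the winning keratin sum over 10 times the other instead of 3 times, kept 601 to 1234 basal cells per library. It gave 21 members higher and 3 lower in basal against progenitor cells, with a median of 0.65 over the 35 members tested, Pycr1 having failed the filter on low counts. Sesn2, Stc2, Mthfd1l, Iars, Lars and Tars then no longer passed, and Psat1 passed as lower at -0.67.

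Among the transcription factors, Atf4 RNA itself differed little between basal and progenitor cells. In basal cells Atf4 stood at 809 and 739 CPM with corn oil and at 969 and 938 CPM with 4OHT. In progenitors it stood at 724 and 540 CPM, then 768 and 857 CPM, and in hormone-sensing cells at 332, 325, 328 and 344 CPM. The basal value was above the progenitor value in each of the 4 libraries, but the 2 ranges overlapped and the scaled log2 fold change was -0.01 (SE 0.13, edgeR adjusted p = 0.957). Without scaling factors it was 0.27 with an adjusted p of 0.0447. The hormone-sensing level was below all others, with a log2 fold change of -1.35 (SE 0.14, edgeR adjusted p = 7.52e-07) against progenitors and -1.34 (SE 0.14, edgeR adjusted p = 3.51e-07) against basal cells.

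Atf5, a related bZIP factor that is also controlled at translation, was 237, 99.4, 191 and 115 CPM in basal cells, in the order corn oil 1 and 2, 4OHT 1 and 2 that is used from here on. It was 185, 145, 241 and 168 CPM in progenitors and 36.5 to 50.9 CPM in hormone-sensing cells. Basal cells were lower than progenitors in 3 of 4 libraries, with a log2 fold change of -0.53 (SE 0.15, edgeR adjusted p = 0.00759) that became -0.26 (adjusted p = 0.161) without scaling factors. Against progenitors the hormone-sensing change was -2.39 (SE 0.18, edgeR adjusted p = 2.39e-08). Ddit3, which encodes the stress factor CHOP, was 414, 496, 357 and 431 CPM in basal cells, 129, 134, 117 and 238 CPM in progenitors and 43.8 to 66.3 CPM in hormone-sensing cells. The 3 classes did not overlap. The basal against progenitor change was 1.22 (SE 0.17, edgeR adjusted p = 1.21e-05), and the hormone-sensing change was -2.84 (SE 0.19, edgeR adjusted p = 2.25e-09) against basal cells.

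Chac1, Trib3 and Sesn2 kept the main order in all 4 libraries. Chac1, a glutathione-degrading enzyme, was 23.7, 31.4, 28.3 and 37.0 CPM in basal cells and 2.06, 4.30, 5.24 and 6.60 CPM in progenitors. In hormone-sensing cells it was 1.54, 2.94, 0 and 1.58 CPM, where the count of 0 in 4OHT replicate 1 allows up to 1.93 CPM (3 counts). Every basal library was thus above every other class, by 2.49 on the log2 scale over progenitors (SE 0.24, edgeR adjusted p = 1.83e-07). Over all libraries the basal level of Chac1 was 19.2 times the hormone-sensing level, with an exact 95% interval of 10.7 to 38.6 for counting error only. Trib3, a pseudokinase that restrains ATF4, was 114, 95.9, 148 and 144 CPM in basal cells, 42.4, 49.9, 61.3 and 74.2 CPM in progenitors and 10.6 to 17.0 CPM in hormone-sensing cells. Its hormone-sensing change was -3.18 (SE 0.18, edgeR adjusted p = 3.55e-10) against basal cells. Sesn2, a leucine sensor upstream of mTORC1, was 22.9 to 68.0 CPM in basal cells, 11.4 to 31.4 CPM in progenitors and 4.33 to 7.71 CPM in hormone-sensing cells. Basal exceeded progenitor within each library although the ranges overlapped, with a log2 fold change of 0.89 (SE 0.16, edgeR adjusted p = 0.000198).

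Nupr1 and Stc2 broke the order. Nupr1, a small chromatin protein of the stress response, was 145, 116, 212 and 140 CPM in basal cells against 452, 395, 630 and 508 CPM in progenitors and 426, 459, 662 and 261 CPM in hormone-sensing cells. Every basal library was below every luminal value, by 1.99 on the log2 scale in basal against progenitor cells (-1.99, SE 0.18, edgeR adjusted p = 1.11e-07). Its hormone-sensing change was 1.57 (SE 0.18, edgeR adjusted p = 1.56e-06) against basal cells, and against progenitors it was -0.42 and did not pass (edgeR adjusted p = 0.0658). It passed there at -0.64 (adjusted p = 0.00868) without corn oil replicate 2 and at -0.52 (adjusted p = 0.000851) with no filter on low counts. Stc2, which encodes the secreted glycoprotein stanniocalcin 2, was 412, 189, 453 and 688 CPM in hormone-sensing cells, 45.1, 53.1, 23.6 and 44.6 CPM in basal cells and 8.39, 14.2, 7.97 and 50.1 CPM in progenitors. The hormone-sensing values lay above all others, at 4.41 (SE 0.39, edgeR adjusted p = 1.81e-07) against progenitors and 3.31 (SE 0.37, edgeR adjusted p = 1.05e-06) against basal cells. A Stc2 UMI was seen in 35.2% to 68.2% of hormone-sensing cells and in 3.3% to 7.9% of progenitors. In 4OHT replicate 2 the progenitor level of Stc2 was above the basal level, the reverse of the other libraries. The basal against progenitor call (1.10, SE 0.37, edgeR adjusted p = 0.0188) was lost at 0.77 (adjusted p = 0.168) without corn oil replicate 1 and at 0.80 (adjusted p = 0.0883) without corn oil replicate 2.

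Of the 7 enzymes of asparagine, serine, proline and cysteine synthesis, 6 were higher and 0 lower in basal than in progenitor cells. Cth, which makes cysteine from cystathionine, showed the widest step of all members. Cth was 30.9, 28.3, 19.7 and 24.7 CPM in basal cells and 1.10, 1.32, 1.79 and 0.81 CPM in progenitors. Its log2 fold change was 4.02 (SE 0.28, edgeR adjusted p = 4.42e-09). The hormone-sensing sums held 0, 1, 0 and 3 Cth UMIs, so the basal level was 46.7 times as high with an exact 95% interval of 18.2 to 172. Such low values were read against 6 basal markers outside the class rule, whose mean over the libraries was 1.97% to 4.17% of their basal level in progenitors and 0.969% to 2.55% in hormone-sensing cells. Free RNA, doublets and misassigned cells cannot be told apart in these percentages. Cth, at 1.71% of its basal level in hormone-sensing cells, and Aldh1l2, at 2.48%, lay within that range. Their means there cannot be told from background. In single hormone-sensing libraries Cth was 0% to 4.77% and Aldh1l2 0% to 6.29%, on few UMIs, while the marker Oxtr reached 4.28%. In progenitors no member's mean was at or under 4.17%, and Cth was nearest at 4.84%. In single libraries the ranges overlapped, since progenitor Cth was 3.25% to 9.06% of its basal level and Aldh1l2 5.76% to 9.41%, while the marker Tagln reached 7.98%.

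The 3 enzymes of the serine pathway differed in their order across classes. Phgdh, its first enzyme, was 17.9, 14.2, 37.7 and 22.8 CPM in basal cells, 4.68, 7.77, 7.74 and 9.34 CPM in progenitors and 28.5, 10.6, 29.0 and 42.9 CPM in hormone-sensing cells. Phgdh was therefore lowest in progenitors in each library, with changes of 1.34 (SE 0.24, edgeR adjusted p = 0.000146) for basal and 1.62 (SE 0.26, edgeR adjusted p = 9.93e-05) for hormone-sensing cells, while those 2 classes overlapped (0.28, SE 0.24, edgeR adjusted p = 0.339). Psat1, the aminotransferase of the second step, was 29.6 to 36.7 CPM in basal cells, 32.8 to 38.2 CPM in progenitors and 4.12 to 10.3 CPM in hormone-sensing cells. Basal and progenitor Psat1 overlapped (-0.34, SE 0.15, edgeR adjusted p = 0.0554), and the hormone-sensing change was -2.71 (SE 0.21, edgeR adjusted p = 3.92e-08) against progenitors. With only basal and progenitor sums in the fit, Psat1 passed at -0.35 (adjusted p = 0.0479). Psph, the phosphatase that ends the pathway, was 41.3 to 47.7 CPM in basal cells, 6.44 to 7.97 CPM in progenitors and 7.65 to 13.0 CPM in hormone-sensing cells. Basal Psph was higher by 2.30 (SE 0.16, edgeR adjusted p = 3.92e-09), and the luminal classes overlapped (0.17, SE 0.21, edgeR adjusted p = 0.526).

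Asns and Aldh18a1 followed the main order, and Pycr1 followed it in 2 of the 4 libraries. Asns, asparagine synthetase, was 203, 157, 189 and 185 CPM in basal cells, 94.3, 76.7, 118 and 68.3 CPM in progenitors and 28.5, 12.9, 24.5 and 14.2 CPM in hormone-sensing cells, with no overlap. Its hormone-sensing change was -2.45 (SE 0.18, edgeR adjusted p = 2.37e-08) against progenitors and -3.25 (SE 0.18, edgeR adjusted p = 3.39e-10) against basal cells. Aldh18a1, which makes the precursor of proline, was 32.4 to 86.3 CPM in basal cells, 14.5 to 30.6 CPM in progenitors and 2.76 to 9.25 CPM in hormone-sensing cells, a change of -3.36 (SE 0.21, edgeR adjusted p = 1.14e-09) from basal to hormone-sensing cells. Pycr1, the last enzyme of proline synthesis, was low throughout, at 2.29 to 5.56 CPM in basal cells and 0.71 to 1.45 CPM in progenitors. That difference was 1.61 (SE 0.36, edgeR adjusted p = 0.00128). Hormone-sensing Pycr1 was 0, 0.59, 1.29 and 1.58 CPM, above the progenitor value in both 4OHT libraries (-0.44, SE 0.62, edgeR adjusted p = 0.599), and the 0 in corn oil replicate 1 allows 2.31 CPM.

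All 4 enzymes of the mitochondrial folate pathway, which takes up carbon from serine, were higher in basal than in progenitor cells. All 4 were lower in hormone-sensing than in basal cells. Aldh1l2, which oxidises formyl-folate, was 69.3, 40.4, 40.9 and 31.3 CPM in basal cells and 3.99, 3.80, 3.09 and 2.58 CPM in progenitors. The classes were far apart, at 3.46 (SE 0.21, edgeR adjusted p = 1.19e-09). Hormone-sensing sums held 7 Aldh1l2 UMIs in all. Mthfd2, the dehydrogenase of the pathway, was 285, 209, 270 and 219 CPM in basal cells, 74.7, 84.3, 122 and 87.3 CPM in progenitors and 18.5, 18.2, 18.7 and 17.3 CPM in hormone-sensing cells. The hormone-sensing libraries were close to each other and separated from all others, by -2.58 (SE 0.17, edgeR adjusted p = 7.45e-09) from progenitors and -3.73 (SE 0.17, edgeR adjusted p = 4.71e-11) from basal cells. Shmt2, which splits serine into glycine and a folate unit, was 75.4 to 91.2 CPM in basal cells, 18.4 to 26.3 CPM in progenitors and 11.6 to 18.1 CPM in hormone-sensing cells. Its basal against progenitor change was 1.69 (SE 0.15, edgeR adjusted p = 6.96e-08). Mthfd1l, the formate-releasing enzyme, was 5.92 to 16.9 CPM in basal cells and 1.16 to 6.67 CPM in progenitors, which overlapped between libraries though not within any (1.56, SE 0.31, edgeR adjusted p = 0.000419). That call was lost with the stricter class rule (0.87, adjusted p = 0.0645).

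Of the 7 transporters, 6 were higher in basal than in progenitor cells and all 7 were lower in hormone-sensing than in basal cells. Slc7a5 and Slc3a2 encode the light and heavy chains of the LAT1 exchanger of large neutral amino acids. Slc3a2 was 1623, 1362, 1486 and 1471 CPM in basal cells, 861, 482, 861 and 746 CPM in progenitors and 191, 144, 157 and 150 CPM in hormone-sensing cells. Slc7a5 was 166, 97.3, 135 and 101 CPM in basal cells, 25.0, 22.0, 36.8 and 21.3 CPM in progenitors and 13.1, 5.29, 9.66 and 3.94 CPM in hormone-sensing cells. The classes did not overlap for either chain. Against progenitors the basal step was 1.97 (SE 0.16, edgeR adjusted p = 3.46e-08) for Slc7a5 and 0.76 (SE 0.14, edgeR adjusted p = 0.000284) for Slc3a2. From basal to hormone-sensing cells the steps were -4.04 (SE 0.22, edgeR adjusted p = 2.64e-10) and -3.20 (SE 0.16, edgeR adjusted p = 1.05e-10).

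Slc1a5, a glutamine transporter, departed from the order among the luminal classes. It was 11.8 to 16.1 CPM in basal cells, 1.19 to 2.42 CPM in progenitors and 5.40 to 8.66 CPM in hormone-sensing cells, so progenitors were lowest in each library. The basal step over progenitors was 2.59 (SE 0.24, edgeR adjusted p = 1.27e-07) and the hormone-sensing step 1.65 (SE 0.30, edgeR adjusted p = 0.000334). The related Slc1a4, a carrier of alanine and serine, was 5.66 to 8.59 CPM in basal and 3.86 to 7.93 CPM in progenitor cells, which overlapped (0.07, SE 0.25, edgeR adjusted p = 0.828). Slc7a11, the cystine importer whose promoter stretch is shown above, was 14.7 to 18.5 CPM in basal cells, 2.75 to 9.91 CPM in progenitors and 0.59 to 2.58 CPM in hormone-sensing cells, with a basal step of 1.45 (SE 0.25, edgeR adjusted p = 0.000128) over progenitors. Slc7a1, the carrier of cationic amino acids, was 37.2 to 51.2, 11.6 to 18.01 and 2.35 to 6.69 CPM in the 3 classes, and its hormone-sensing change against progenitors was -1.997 (SE 0.27, edgeR adjusted p = 1.51e-05). Slc38a2, a carrier of small neutral amino acids, was 613 to 952 CPM in basal cells, 245 to 332 CPM in progenitors and 210 to 268 CPM in hormone-sensing cells. Its luminal classes overlapped, and its call in hormone-sensing against progenitor cells (-0.47, edgeR adjusted p = 0.0122) was lost without scaling factors (-0.22, adjusted p = 0.148) and, in turn, without corn oil replicate 1 (adjusted p = 0.0849), 4OHT replicate 1 (adjusted p = 0.0605) or 4OHT replicate 2 (adjusted p = 0.0761).

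The 10 cytosolic aminoacyl-tRNA synthetases, which load amino acids on tRNA, showed smaller steps between basal and progenitor cells: 7 were higher, with a median of 0.69 over the 10. Aars, for alanine, was 74.1, 34.7, 66.5 and 40.5 CPM in basal cells, 23.8, 20.8, 31.3 and 13.9 CPM in progenitors and 7.71, 5.29, 6.44 and 5.51 CPM in hormone-sensing cells. Its classes did not overlap, with steps of 0.98 (SE 0.15, edgeR adjusted p = 4.83e-05) from progenitor to basal and -3.04 (SE 0.22, edgeR adjusted p = 5.59e-09) from basal to hormone-sensing cells. Gars was higher by 0.93 (SE 0.15, edgeR adjusted p = 5.07e-05) and Eprs by 0.89 (SE 0.15, edgeR adjusted p = 9.91e-05) in basal than in progenitor cells. Sars (0.12, adjusted p = 0.375), Nars (0.27, adjusted p = 0.0787) and Wars (0.33, adjusted p = 0.182) did not pass in edgeR's test, although the basal CPM was above the progenitor CPM in all 4 libraries. They passed without scaling factors, at 0.40, 0.54 and 0.60. Tars, called at 0.46 (SE 0.15, edgeR adjusted p = 0.0182), was no longer called without corn oil replicate 1 (adjusted p = 0.092), corn oil replicate 2 (adjusted p = 0.0751) or 4OHT replicate 2 (adjusted p = 0.0924), and Iars was no longer called without corn oil replicate 1 (adjusted p = 0.106). In hormone-sensing against progenitor cells 9 of the 10 were lower, led by Aars (-2.06, SE 0.22, edgeR adjusted p = 1.75e-06), Tars (-2.04, SE 0.20, edgeR adjusted p = 7.4e-07) and Nars (-1.95, SE 0.14, edgeR adjusted p = 2.51e-08). Wars, for tryptophan, was the exception. It was 25.4, 7.65, 23.2 and 20.1 CPM in hormone-sensing cells against 8.53 to 10.4 CPM in progenitors, and its call (0.73, SE 0.23, edgeR adjusted p = 0.0153) was lost without corn oil replicate 1 (adjusted p = 0.106), 4OHT replicate 1 (adjusted p = 0.0773) or 4OHT replicate 2 (adjusted p = 0.0749).

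**Figure D2:**
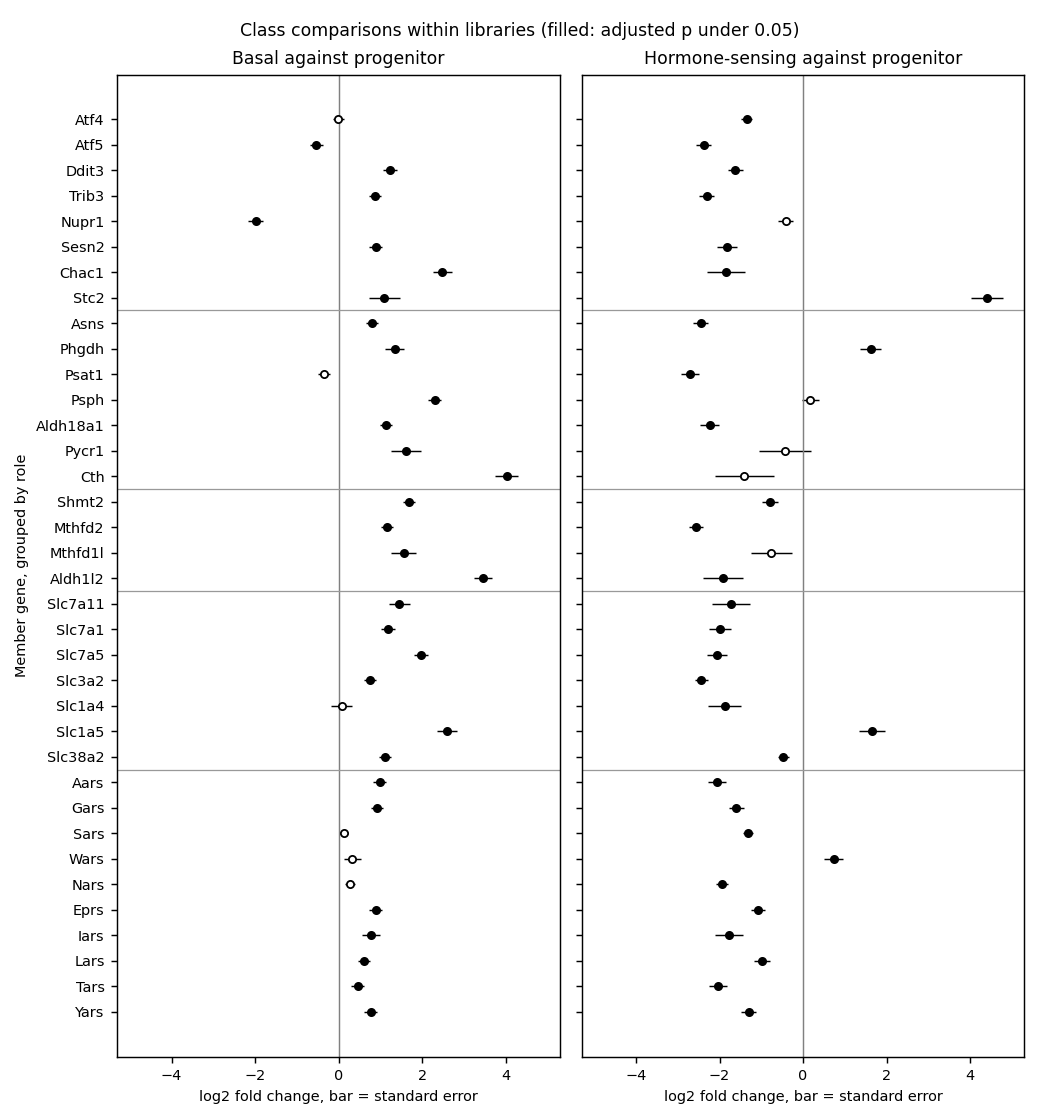
Log2 fold change of each member in basal (left) and hormone-sensing (right) against progenitor cells, from edgeR with library as a block; bars are 1 standard error and filled points passed an adjusted p of 0.05. On the left Cth at 4.02 and Aldh1l2 at 3.46 are farthest right and Nupr1 at -1.99 farthest left, and on the right Stc2 at 4.41 stands apart from the 27 lower members.

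Other genes of the pathway were counted in the same fits. Like the members, these lists and those of the next paragraph were chosen with earlier results of these data known. Among 22 further genes reported as ATF4 targets, 14 were higher and 3 lower in basal than in progenitor cells (median 1.12), led by Vegfa (2.92), Nfil3 (2.55) and Ddit4 (2.08), and 17 were lower and 3 higher in hormone-sensing than in basal cells (median -2.21). The 14 endoplasmic reticulum stress genes followed the same steps: 10 were higher and 0 lower in basal than in progenitor cells (median 0.86), and all 14 were lower in hormone-sensing than in basal cells (median -2.43), with Dnajb9 at -4.18. The 16 genes of the kinases and initiation factors that set the stress response were divided, with 3 higher and 3 lower in basal than in progenitor cells (median -0.13) and 3 higher and 4 lower in hormone-sensing than in basal cells (median -0.13).

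Neighbouring pathways that were not listed as ATF4 targets were counted in the same way. Of 14 mitochondrial tRNA synthetases tested, 2 were higher and 3 lower in basal than in progenitor cells (median -0.12), and 5 were higher and 2 lower in hormone-sensing than in basal cells (median 0.17). The 10 other cytosolic synthetases had 5 higher and 3 lower in basal than in progenitor cells (median 0.51), and 2 higher and 6 lower in hormone-sensing than in basal cells (median -0.64). Of 9 other folate and one-carbon genes tested, 1 was higher and 4 lower in basal than in progenitor cells (median -0.17), and 4 were higher and 1 lower in hormone-sensing than in basal cells (median 0.64). Shmt1, the cytosolic partner of Shmt2, was lower in basal than in progenitor cells (-2.54) and higher in hormone-sensing than in basal cells (2.38), the reverse of Shmt2. Of the 7 glutathione genes, 1 was higher and 3 lower in basal than in progenitor cells (median -0.44), while 4 were higher and 1 lower in hormone-sensing than in basal cells (median 1.06). Of the 18 genes that cell isolation is known to raise, 4 were higher and 6 lower in basal than in progenitor cells (median -0.12), a share near the 56.1% of all genes. In hormone-sensing cells 1 was higher and 15 lower than in progenitors (median -1.26), and 1 was higher and 12 lower than in basal cells (median -0.86). Their summed level was 13060 to 18080 CPM in basal, 11660 to 21520 CPM in progenitor and 5229 to 10130 CPM in hormone-sensing cells. Their part in the members' differences was not tested.

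The second question was whether the members differ between 4OHT and corn oil, the comparison for which the study was built. No member passed in any class, and nearly no gene did. In basal cells 0 of 10788 genes passed edgeR's test (0.0%), in progenitors 0 of 10120 (0.0%) and in hormone-sensing cells 1 of 7589 (0.0132%), which was Ctsr, no member, named here after its value was seen. An unadjusted p under 0.05 was found for 465, 166 and 240 genes, and DESeq2 called 38, 1 and 7. With 1 library left out, edgeR called 17 to 127 genes in basal cells, 31 to 64 in progenitors and 4 to 80 in hormone-sensing cells, and the only member among them was Stc2 in progenitors. The 36 members tested in basal cells had a median log2 fold change of -0.05, with 15 above 0, beside -0.02 over all genes. In progenitors 27 of the 34 tested were above 0 with a median of 0.21, beside -0.02 over all genes. In hormone-sensing cells 12 of 27 were above 0 with a median of -0.07, beside -0.01. Cells in no class were not tested between treatments. Their Atf4 level was 588 and 599 CPM with corn oil and 834 and 956 CPM with 4OHT. Ddit3 was 383.5 and 375 against 508 and 514 CPM there, and Trib3 104 and 82.2 against 193.5 and 181 CPM. Slc1a5 went the other way, at 13.5 and 20.04 against 11.1 and 10.2 CPM, and some members, such as Nupr1, overlapped.

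4 values had an unadjusted p under 0.05 and none passed after adjustment. Phgdh in basal cells was 17.9 and 14.2 CPM in corn oil and 37.7 and 22.8 CPM in 4OHT libraries, which did not overlap (0.94, SE 0.29, unadjusted p of 0.0166, edgeR adjusted p = 0.999). Trib3 in basal cells was 114 and 95.9 CPM in corn oil and 148 and 144 CPM in 4OHT libraries (0.53, SE 0.22, unadjusted p of 0.0468, edgeR adjusted p = 0.999). In progenitors Trib3 was 42.4 and 49.9 CPM in corn oil and 61.3 and 74.2 CPM in 4OHT libraries (0.66, SE 0.28, unadjusted p of 0.0465, edgeR adjusted p = 1.0). Trib3 was thus higher in both 4OHT libraries in 2 of the 3 classes, and in hormone-sensing cells it was 17.0 and 10.6 CPM against 15.5 and 13.0 CPM. Stc2 in hormone-sensing cells was 412 and 189 CPM in corn oil and 453 and 688 CPM in 4OHT libraries (0.92, SE 0.36, unadjusted p of 0.029, edgeR adjusted p = 1.0). In progenitors the Stc2 value rested on 4OHT replicate 2, at 50.1 CPM beside 7.97 CPM in 4OHT replicate 1. The hormone-sensing markers Cited1, Prlr, Areg, Pgr, Esr1, Ly6d and Gpx3 were also highest in that progenitor sum. Cited1 was at 33.0 CPM there against 2.74 to 13.1 CPM in the others. Ly6a and Prom1 were lowest there, and Fxyd2 was neither highest nor lowest. The 10 hormone-sensing markers together took 409 CPM in it and 375 to 644 CPM in the other progenitor sums. Ly6a made up much of these totals, with 146 CPM in it and 224 to 482 CPM in the others. The part of hormone-sensing RNA in the Stc2 value was not tested. Without 4OHT replicate 1 the progenitor change was 2.32 (edgeR adjusted p = 0.000159), and with no filter on low counts, where 16363 genes were tested, it was 1.51 (edgeR adjusted p = 0.023).

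**Figure D3:**
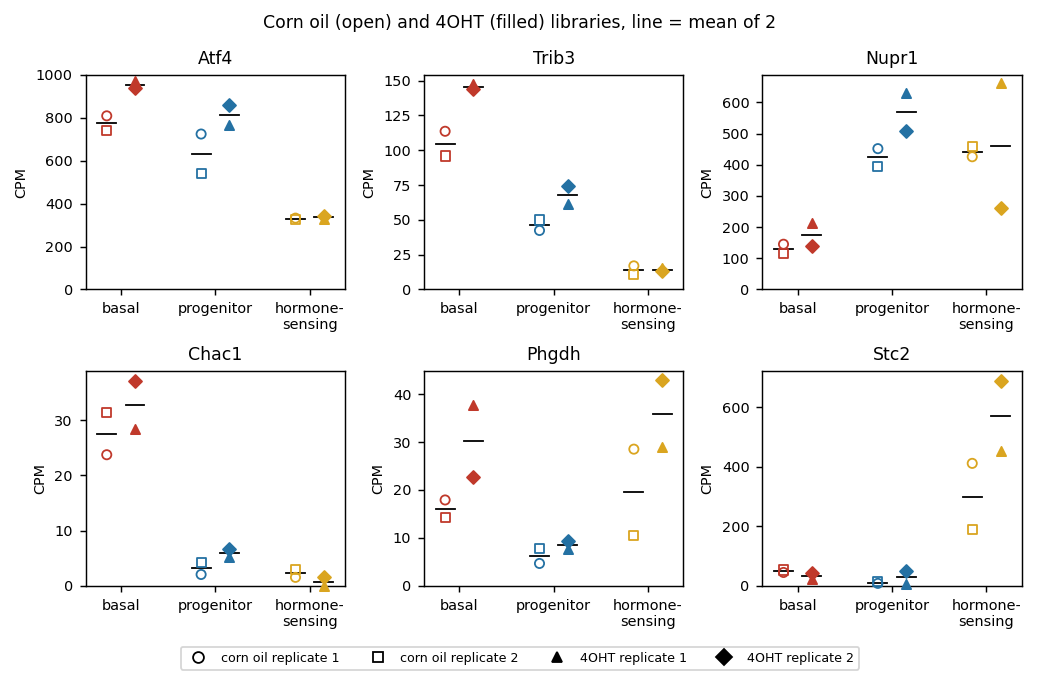
CPM of 6 members in each library, by class, with corn oil libraries open, 4OHT libraries filled and a line at the mean of 2. Atf4 and Trib3 lie higher in both 4OHT libraries in basal and progenitor cells, and Stc2 in hormone-sensing cells, while none of the differences passed the adjusted test.

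Members whose 2 treatment groups did not overlap were counted as a description. In basal cells 3 members (Atf4, Trib3 and Phgdh) had both 4OHT libraries above both corn oil libraries, beside 13.0% of all genes, and 4 (Stc2, Cth, Slc7a11 and Slc1a5) had both below, beside 17.6%. In progenitors 7 of 34 had both 4OHT libraries above, namely Atf4, Trib3, Nupr1, Chac1, Psat1, Shmt2 and Mthfd2, beside 7.33% of all genes, and Aldh1l2 alone had both below, beside 17.5%. In hormone-sensing cells 5 of 27 had both above (Stc2, Phgdh, Slc1a5, Gars and Lars), beside 17.0%, and 2 (Ddit3 and Sesn2) had both below, beside 13.5%. The 4OHT effect in basal cells minus that in progenitors was tested as an interaction, which called 0 of 11135 genes (0.0%) in edgeR and in DESeq2, with 449 genes at an unadjusted p under 0.05. Among the members Mthfd1l had the smallest p (-1.72, SE 0.48, unadjusted p of 0.0028, edgeR adjusted p = 0.953).

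The replicate number separated the libraries more often than the treatment did. In basal cells 25 of 36 members were higher in both libraries numbered 1 than in both numbered 2, beside 37.3% of all genes, and 3 members (Ddit3, Chac1 and Psph) were lower in both, beside 16.1%. In progenitors 15 of 34 members were higher in the libraries numbered 1, beside 24.7%, and 4 were lower (Ddit3, Stc2, Phgdh and Slc1a5), beside 19.5%. In hormone-sensing cells the counts were 13 of 27, beside 27.9%, and 1 (Shmt2), beside 12.8%. All the tRNA synthetases of the set were among the 25 in basal cells. Corn oil replicate 1 had the highest basal level of 22 members, corn oil replicate 2 the lowest of 17 and 4OHT replicate 2 the lowest of 13. The libraries numbered 1 also had more UMIs per basal cell, with medians of 5152.5 and 3850 against 3172 and 2827.5. In progenitors the medians overlapped, at 5281.5 and 4375 against 4780 and 3473. In hormone-sensing cells they were 8258 and 6152 against 4745.5 and 5083. The labels do not say what the numbers stand for, and the part of depth in these levels was not tested.

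**Figure D4:**
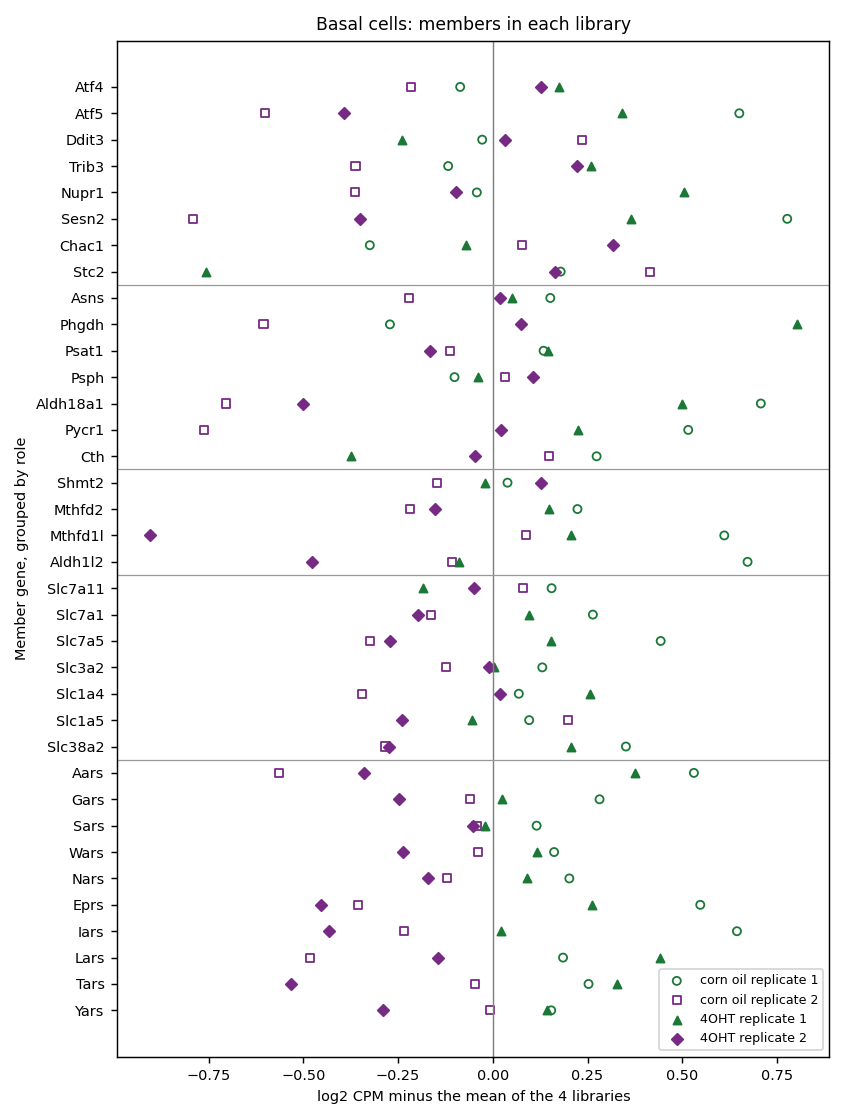
Log2 CPM of each member in basal cells, minus its mean over the 4 libraries, with libraries numbered 1 in green and those numbered 2 in purple (corn oil open, 4OHT filled). Green points lie to the right of purple ones for 25 of the 36 members, with Ddit3, Chac1 and Psph the other way round.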

How the data were processed

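The authors deposited a raw UMI count for each gene in each cell, made with Cell Ranger 3.0.1 on mm10, with bcl2fastq named before it, per the submitters' processing notes. Strand and the use of introns are not given in the sources used here, so overlapping genes and near-identical copies could share counts. The members and gene lists were chosen with earlier results of these data known.

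Cells with at least 1000 UMIs were kept. Basal cells had at least 5 UMIs of Krt5, Krt14, Krt17 and Acta2 and more than 3 times those of Krt8, Krt18 and Krt19, and luminal cells the reverse. Luminal cells with at least 3 UMIs of Ly6d, Fxyd2 and Gpx3, and more than of Wfdc18, Csn3 and Ltf, were hormone-sensing, and the others progenitors. No doublet caller was run; cells with mixed keratins stayed unassigned, and other doublets may remain. Counts were summed per library and class and tested with edgeR 4.0.16 (R 4.3.3): TMM factors, filterByExpr, quasi-likelihood F-test, Benjamini-Hochberg adjustment over all genes tested, threshold 0.05. Treatments were compared between 2 and 2 libraries within a class; classes were compared in 1 fit of 12 sums with library as a block. A 3′ UMI counts a molecule once, so CPM was not divided by length. Class sums held 1297128 to 8402376 UMIs. Libraries of a group differed by far more than counting noise (chi-square per degree of freedom at least 8.0). The fit was tried on simulated data in which 200 genes were changed 4-fold up or down. In the basal against progenitor comparison it recovered 93% of the 200 among 10876 genes, with 16 false calls. In the basal treatment comparison it recovered 89.5% of 200 among 10373 genes, with 16 false calls. The simulated libraries of a class shared their mean levels, so they lacked the differences between mice seen here. The 89.5% is therefore not the power of the treatment comparison in these data. In the simulated class comparison only the 200 genes differed between classes, while 56.1% of genes were called in these data. The 93% is therefore not the power of that comparison here either. Alternatives were DESeq2 1.42.0, other scalings, no filter, stricter cell rules, left-out libraries and a block. Full values were given for the up to 3 members per role and direction with the largest change among those passing with 4 libraries on 1 side, for Atf4, Atf5 and Ddit3, and, between treatments, for members with an unadjusted p under 0.05; other values were chosen after they were seen.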

Additional observations from a re-analysis of the deposited data

Results flagged for a closer look

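By CPM, the 4OHT effect had opposite directions in hormone-sensing and basal cells for 3 members. Both 4OHT libraries were above both corn oil libraries in hormone-sensing cells and below both in basal cells. Of all genes tested in each class, 17.0% lay above in hormone-sensing cells and 17.6% lay below in basal cells. The share of all genes that did both was not counted. The difference of the 2 effects was then tested as an interaction, a contrast chosen after seeing the data, and no member passed, where 1 of 11135 genes did and 685 had an unadjusted p under 0.05. For Stc2 it was 1.51 on the log2 scale (SE 0.54, edgeR adjusted p = 0.71). For Slc7a11, the cystine importer, it was 1.47 (SE 1.06, edgeR adjusted p = 0.877), on few UMIs in hormone-sensing cells, where its treatment change was not tested alone. For Slc1a5, the glutamine transporter, it was 0.79 (SE 0.52, edgeR adjusted p = 0.864).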

How the results depend on the processing

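Of 1398 member values recomputed in the class comparisons, 1356 kept their direction and side of the threshold, 26 no longer passed, 9 newly passed and 7 changed sign. The changes of sign were all in basal against progenitor cells: Slc1a4 (-0.092), Sars (-0.235) and Nars (-0.021) with the stricter class rule, and Atf4 at 0.267 without scaling factors. With a library left out, Atf4 ranged from -0.102 to 0.012 (without corn oil replicate 1) and Slc1a4 from -0.144 (without 4OHT replicate 2; -0.075 without corn oil replicate 1) to 0.309. The 4OHT calls over all genes moved most. In basal cells there were 93 with no filter, 38 in DESeq2 and 17 to 127 with a library left out. In progenitors there were 39 with no filter, 1 in DESeq2, 1 with the stricter class rule and 31 to 64 with a library left out. In hormone-sensing cells there were 59 with no filter, 7 in DESeq2, 0 with at least 2000 UMIs per cell and 4 to 80 with a library left out. The interaction had 39 calls with no filter and 0 to 7 with a library left out. Where a library was left out, the lone sample of its arm was taken to vary like the other group. The members called rose from 0 to 1 in progenitors with no filter and, across the libraries left out, to 0 to 1 (Stc2), and to 1 in the interaction with no filter (Stc2, -1.72, adjusted p = 6.37e-05). With the replicate number as a block, the treatment calls were 167 in basal cells, including 1 member, Phgdh (0.93, adjusted p = 0.0317), 9 in progenitors and 3 in hormone-sensing cells. The labels do not say that the number pairs mice. Deviations of same-numbered libraries correlated at 0.59 across genes in basal cells, 0.33 in progenitors and 0.22 in hormone-sensing cells, from 2 pairs. Depth was lowest in the hormone-sensing sums, at 1297128 to 2539711 UMIs, and the power to find differences there was not tested.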
